A study of Mus musculus with 29 samples.

Results

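The Irx (Iroquois) genes encode 6 homeobox transcription factors that stand in 2 clusters of 3, and the H2Aub types of both clusters are described here. The members were taken by name at their RefSeq positions on mm10. The IrxA cluster on chromosome 13 holds Irx1, Irx2 and Irx4, and the IrxB cluster on chromosome 8 holds Irx3, Irx5 and Irx6. All 6 were found among 20558 protein-coding genes on the segmented chromosomes 1 to 19. Each cluster was taken from the first base of its first gene to the last base of its last gene, gene deserts included, with 500 kb on each side.

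Monoubiquitinated histone H2A (H2AK119ub, H2Aub) is deposited by Polycomb repressive complex 1, and H3K27me3 by Polycomb repressive complex 2. Polycomb complexes are known for keeping developmental regulator genes silent in cells that do not use them. Irx proteins carry a homeodomain of the TALE class and act in patterning of the neural tube, heart, limb and retina. The 2 clusters arose by duplication, so that Irx1 and Irx3, Irx2 and Irx5, and Irx4 and Irx6 are the paralogous pairs and follow each other in the same order. Their enhancers are spread through the long deserts between the genes.

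The study profiled H2Aub by CUT&RUN in 24 mouse libraries and H3K27me3 in 5, in 16 groups of 1 to 3. Wild-type H2Aub came from 16 libraries of 8 stages, from oocytes at the germinal vesicle stage and at metaphase II through the zygote, the 2-cell and 4-cell embryo and the morula to the inner cell mass and the epiblast at E6.5. Libraries pooled 1 to 300 oocytes or embryos, where the labels give a number. The "WT" germinal vesicle oocytes carried Eed (fl/fl) on a B6/129 mixed background. The 4-cell and morula WT embryos and 2 of the 3 2-cell libraries came from Eed (fl/fl) females of that background and PWK males, and the other WT embryos were B6/DBA x PWK with no manipulation. Metaphase II oocytes were B6/DBA. The maternal knockout, with 6 H2Aub libraries from germinal vesicle oocytes, 4-cell embryos and morulae, was labelled Gdf9-Eed (fl/fl). Gdf9 is an oocyte gene, so the deletion is made in the oocyte, and the embryos received a wild-type paternal genome. PR-DUB, a deubiquitinase of H2A, gave 6 libraries of 4-cell B6/DBA x PWK embryos labelled CTR or OE, of which 2 measured H2Aub and 4 H3K27me3. A further H3K27me3 library came from B6/DBA germinal vesicle oocytes.

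The values used here come from a genome segmentation with no column for any library: each stretch carries an H2Aub type from 1 to 5. The types are categories with no key, not levels, and the sources used here do not say which libraries entered them. Therefore no stage, genotype or PR-DUB group is compared, no replicate error exists, the depth is unknown, and no test is made. Tissue markers could not be checked in such data. Positions are counted from 1 on mm10, "lower" and "upper" mean smaller and larger coordinates, and segment borders are known only to the 5 kb step of the table.

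The promoter sequences of the members show which start sites the types were read at. RefSeq promoter entries (GRCm38.p6, the mm10 build) were matched for 3 of the 6 members, Irx2, Irx3 and Irx4. They run from 250 bases before to 50 bases after the start site and are given 5′ to 3′ on the gene's strand, with CG dinucleotides in capitals. Crnde, the long non-coding RNA gene beside Irx5, and Fto, the neighbour of Irx3, are added because segment borders lie near their ends.
Irx2: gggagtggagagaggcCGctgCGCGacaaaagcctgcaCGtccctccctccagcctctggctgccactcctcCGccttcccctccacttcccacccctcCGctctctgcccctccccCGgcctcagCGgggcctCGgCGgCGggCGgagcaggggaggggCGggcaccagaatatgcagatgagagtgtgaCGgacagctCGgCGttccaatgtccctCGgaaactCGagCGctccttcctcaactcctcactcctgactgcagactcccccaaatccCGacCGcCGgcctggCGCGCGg
Irx4: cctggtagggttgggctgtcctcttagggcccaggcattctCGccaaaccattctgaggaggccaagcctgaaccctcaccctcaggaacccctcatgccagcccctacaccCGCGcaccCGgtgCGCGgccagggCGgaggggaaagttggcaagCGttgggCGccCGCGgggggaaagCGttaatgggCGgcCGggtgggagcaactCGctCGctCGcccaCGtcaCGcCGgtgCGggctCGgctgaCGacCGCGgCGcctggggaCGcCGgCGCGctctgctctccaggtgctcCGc
Irx3: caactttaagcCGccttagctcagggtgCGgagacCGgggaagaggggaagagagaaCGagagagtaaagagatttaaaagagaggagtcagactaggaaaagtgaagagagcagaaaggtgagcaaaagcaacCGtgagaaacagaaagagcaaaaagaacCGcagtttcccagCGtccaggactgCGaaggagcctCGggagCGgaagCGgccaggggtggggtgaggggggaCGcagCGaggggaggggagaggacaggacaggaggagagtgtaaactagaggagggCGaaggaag
Crnde: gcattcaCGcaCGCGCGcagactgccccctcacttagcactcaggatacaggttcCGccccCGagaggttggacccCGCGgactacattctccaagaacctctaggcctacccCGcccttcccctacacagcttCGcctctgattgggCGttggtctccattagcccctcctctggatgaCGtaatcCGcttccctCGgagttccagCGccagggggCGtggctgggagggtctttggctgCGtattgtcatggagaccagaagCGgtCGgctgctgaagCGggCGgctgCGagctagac
Fto: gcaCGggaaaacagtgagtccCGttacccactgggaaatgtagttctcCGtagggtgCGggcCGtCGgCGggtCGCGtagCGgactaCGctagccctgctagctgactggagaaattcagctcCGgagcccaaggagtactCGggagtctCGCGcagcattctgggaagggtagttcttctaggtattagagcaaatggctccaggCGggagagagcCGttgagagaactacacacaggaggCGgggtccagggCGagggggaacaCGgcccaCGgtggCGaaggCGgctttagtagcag

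These windows were chr13:72628570-72628869 (plus strand) for Irx2, chr13:73260247-73260546 (plus strand) for Irx4 and chr8:91801605-91801904 (minus strand) for Irx3. For Crnde the window was chr8:92356071-92356370 (minus strand), and for Fto chr8:91313275-91313574 (plus strand). Irx4 had 31 CG dinucleotides and a C+G content of 70.7%, Irx2 25 and 69.0%, and Irx3 14 and 56.0%. The median over 16457 protein-coding promoters was 14 CG dinucleotides and 56.7%, so Irx3 sat at the median count and Irx2 and Irx4 above it. As many as in Irx4 were found in 14% of all promoters, as many as in Irx2 in 25.5% and as many as in Irx3 in 50.9%. Among the 2445 promoters whose start site lay in type 4, the median was 11 CG dinucleotides, against 17 in type 3 and 2 in type 5. Crnde had 22 and Fto 23. The Fto start site lay in type 2, 3.52 kb from a border, at the gene end farther from Irx3.

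All 3 member start sites lay in type 4, the type of 14.9% of protein-coding start sites. They lie within gene bodies that are wholly type 4, as given below, so this is not a separate result. The Irx2 start site was 46.2 kb from the nearer border of its type 4 segment, that of Irx4 54.5 kb and that of Irx3 132 kb. Beside Irx3 and Irx2, non-coding genes start on the other strand. Irx3os started 1682 bases from Irx3, and Gm20554 started 256 bases from Irx2, both also in type 4. By gene positions Gm20554 and Irx2 overlap, because the Irx2 body begins at 72624430, below the start site used here. A 5 kb bin can cover both.

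All 6 Irx genes lay wholly in type 4, each in a segment of its own. Type 4 covered most of the body in 14% of all protein-coding genes and the whole body in 9.5%. Genes of a cluster are neighbours, so the 6 stand for 2 loci rather than 6 independent cases. The members are short, from 3.14 to 10.03 kb, and of the 7302 protein-coding genes no longer than Irx4, 12.4% lay wholly in type 4. With 20 kb added on each side, 5 of the 6 were still wholly type 4, beside 4.29% of all protein-coding genes. The exception was Irx5.

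Irx1 (chr13:71958232-71963723), which is expressed in the forming digits and lung, lay in a 90 kb type 4 segment between type 5 segments. Irx2 (chr13:72624430-72634196), known from cerebellum formation, lay in a 145 kb type 4 segment, also between type 5. Irx4 (chr13:73259589-73269622), a ventricular heart factor, lay near the upper end of a 630 kb type 4 segment with type 5 below and type 3 above. The segment of Irx4 was among the 8 longest of 4751 type 4 segments (0.168%), whose median was 40 kb and whose maximum was 835 kb. The segments of all 6 members were longer than that median. A long segment is more likely to hold a given gene than a short one. Comparisons of member segments with all type 4 segments, also that for Irx3 below, therefore lean towards length.

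Irx3 (chr8:91798511-91801654), which acts in neural tube patterning and in the heart's conduction system, lay in a 300 kb type 4 segment between type 3 segments, and 2.82% of type 4 segments were as long. Irx5 (chr8:92357796-92361456), known from cardiac repolarization and retinal bipolar cells, lay in a 145 kb type 4 segment between type 3. Its lower end was 2.79 kb from the border, less than 1 step of the table. Irx6 (chr8:92674289-92680956), a factor of retinal bipolar cells, lay in a 245 kb type 4 segment with type 5 below and type 3 above. The paralogues therefore shared type 4, while the types beside it differed in 2 of the 3 pairs. Irx1 and Irx2 had type 5 on both sides, and their paralogues Irx3 and Irx5 had type 3 on both. The paralogues Irx4 and Irx6, the last genes of their clusters by coordinate, each had type 5 below and type 3 above.

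**Figure D1:**
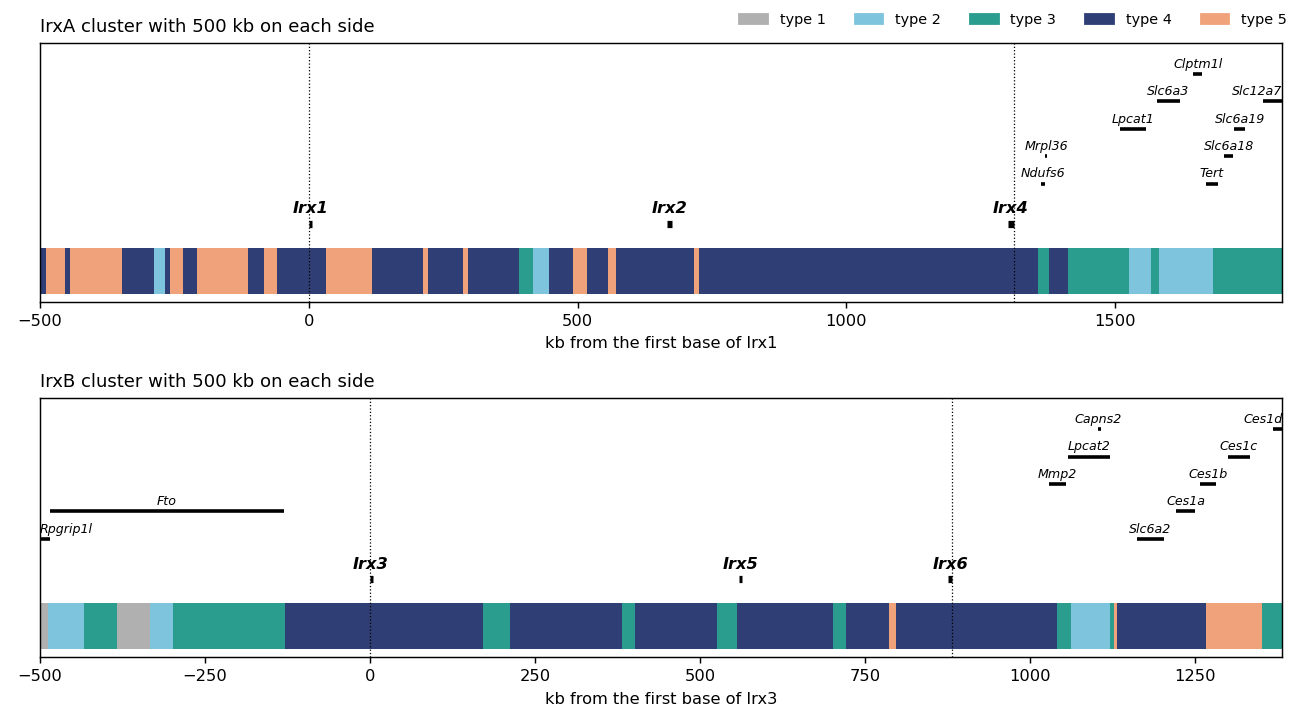
H2Aub types along the IrxA (top) and IrxB (bottom) clusters with 500 kb on each side; the x axis is the distance in kb from the first base of Irx1 or Irx3, colours are the 5 types, black bars are protein-coding genes and dotted lines are the cluster ends. All 6 Irx genes stand over type 4, which type 5 interrupts in IrxA and type 3 in IrxB.

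The IrxA cluster (chr13:71958232-73269622, 1311.4 kb) was 84.0% type 4, 11.8% type 5, 2.29% type 2 and 1.91% type 3. The IrxB cluster (chr8:91798511-92680956) was 86.4% type 4, 12.5% type 3 and 1.13% type 5. Over all bins of the 19 chromosomes type 4 took 13.6%, and chromosome 13 as a whole had 14.1% and chromosome 8 11.9%. Neither cluster held any type 1, the most common type of the genome at 32.2% of bins. The type 4 share of each cluster lay inside the counting interval of the other, taken over 5 kb bins (79.0 to 88.2% for IrxA and 80.4 to 91.1% for IrxB, exact 95% Clopper-Pearson). Neighbouring bins are not independent, and all bins of each cluster were counted. These intervals are therefore too narrow, hold no replicate error and serve only as a yardstick, not as a test of likeness.

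What interrupted type 4 was not the same in the 2 clusters. In IrxA, 6 type 5 segments of 10 to 85 kb lay between the type 4 segments, with a 25 kb type 3 and a 30 kb type 2 segment next to each other between Irx1 and Irx2. Of the 15 borders inside IrxA, 12 were between types 4 and 5 and 1 between types 3 and 4. In IrxB, 4 type 3 segments of 20 to 40 kb and a 10 kb type 5 segment lay between the type 4 segments. Of the 10 borders inside IrxB, 8 were between types 3 and 4 and 2 between types 4 and 5. Over all 31544 borders these kinds made up 14.6% (types 3 and 4) and 11.4% (types 4 and 5). Clusters made mostly of type 4 have few borders without it, so these shares are not a like background. Over all chromosomes type 4 bordered type 3 at 4598 places, type 5 at 3610, type 2 at 1098 and type 1 at 192. With 2 loci and no replicate, the difference between the clusters was not tested.

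**Figure D2:**
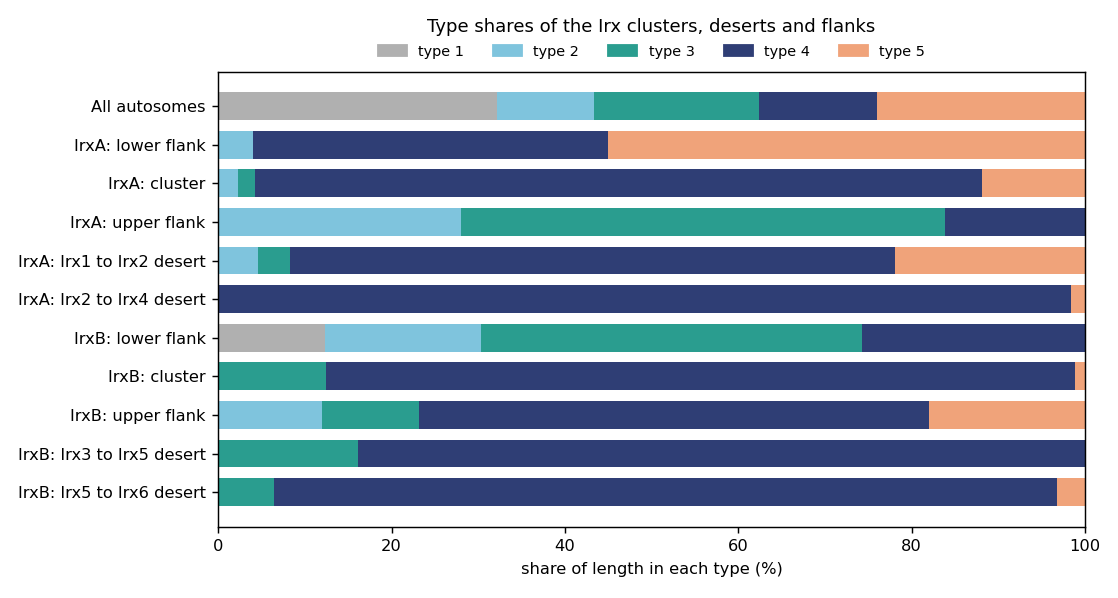
Share of length in each type (x axis, %) over all autosomes and over each Irx cluster, the deserts between its genes and its 500 kb flanks. Type 4 fills 69.7 to 98.4% of the deserts against 13.6% of all bins, and the flanks hold less of it than the clusters.

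Gene deserts between the members were mostly type 4. The desert between Irx2 and Irx4 (625.4 kb) was 98.4% type 4 and 1.60% type 5. Between Irx1 and Irx2 (660.7 kb) it was 69.7% type 4, 21.9% type 5, 4.54% type 2 and 3.78% type 3. In IrxB the desert between Irx3 and Irx5 (556.1 kb) was 83.8% type 4 and 16.2% type 3, and that between Irx5 and Irx6 (312.8 kb) 90.4% type 4, 6.39% type 3 and 3.20% type 5. The desert between Irx1 and Irx2 thus had the least type 4 and was the longest of the 4.

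All 4 deserts were over 50% type 4, which was true of 11.8% of the 939 gaps of at least 300 kb between neighbouring protein-coding genes. The median gap held 1.45% type 4 and 24.6% type 5, and 36.4% of gaps were over 50% type 5. As much type 4 as between Irx2 and Irx4 was found in 6 gaps, this one included, and as much as between Irx1 and Irx2 in 63. The gap below Irx1, 1116 kb to the protease gene Adamts16, was 53.3% type 5 and 44.9% type 4, so there type 5 and not type 4 took most of the length.

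**Figure D3:**
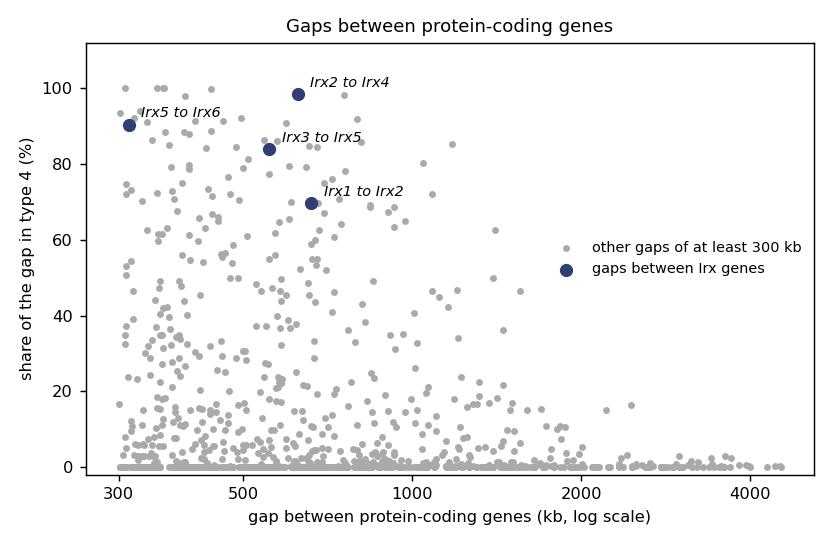
Share of each gap between neighbouring protein-coding genes in type 4 (y axis, %) against the length of the gap (x axis, kb, log scale), for all 939 gaps of at least 300 kb. The 4 gaps between Irx genes, in blue, lie between 69.7 and 98.4%, and the median of all gaps is 1.45%.

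Type 4 reached far beyond the gene bodies. Positions were read outward from both ends of each member, giving 12 positions at each distance. At the ends all 12 were type 4, which follows from the bodies being wholly type 4. Type 4 held 11 at 25 kb, 9 at 50 kb, 10 at 75 and 100 kb, 7 at 150 and 200 kb and 8 at 250 kb. All protein-coding genes had type 4 at 14.3% of positions at the ends and 17.1% at 250 kb. Most of those genes do not start from type 4, so they are not a like background. Genes of type 4 alone were not read this way, and whether type 4 reaches farther from Irx genes was not tested. The positions that left type 4 at 100 kb were 2 in type 5, both in IrxA. At 150 kb 3 were type 3, 2 of them in IrxB. Since neighbouring members are 312.8 to 660.7 kb apart, positions at the larger distances approach the next member.

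**Figure D4:**
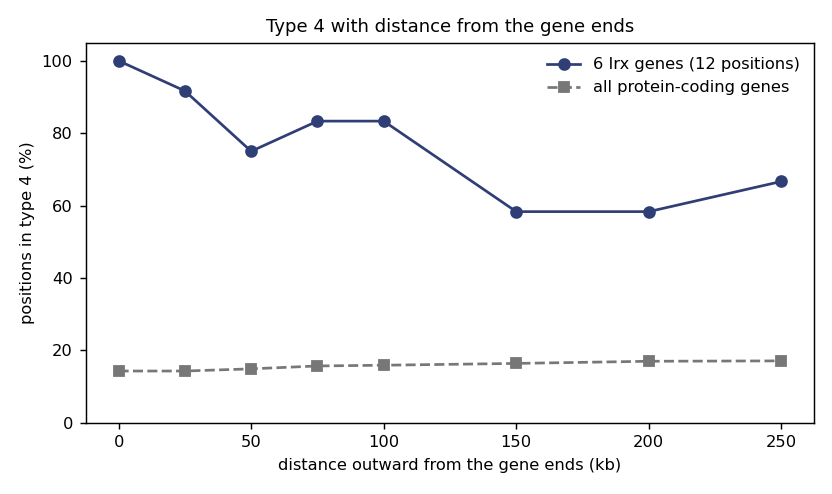
Share of positions in type 4 (y axis, %) at distances of 0 to 250 kb outward from both gene ends (x axis), for the 6 Irx genes (12 positions) and for all protein-coding genes. The Irx genes go from 12 of 12 at the gene ends to a lowest count of 7 of 12 at 150 and 200 kb, with 8 of 12 at 250 kb. All genes stay between 14.3 and 17.1%, but most of them do not start from type 4 and are not a like background.

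Type 1 was far from every member. The nearest type 1 bin was 1323 kb from Irx1, 1266 kb from Irx2, 1209 kb from Irx6, 892.8 kb from Irx5, 630.4 kb from Irx4 and 333.5 kb from Irx3. The median over all 2888 protein-coding genes with type 4 over most of the body was 98.4 kb. Of those genes 0.104% were as far from type 1 as Irx1, 0.139% as far as Irx2 and 11.4% as far as Irx3. The members themselves are among the genes counted, which weighs most on the smallest of these shares. To type 3 the distance was 2.79 kb from Irx5 and 386.3 kb from Irx1, with a median of 16.2 kb over the same genes. To type 5 it was 26.3 kb from Irx1 and 783.3 kb from Irx3, with a median of 395 kb.

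The flanks were less uniform and differed between their sides. The lower flank of IrxA, a desert without protein-coding genes, was 55.0% type 5, 41.0% type 4 and 4.0% type 2, with a 20 kb type 2 segment among the type 4 and type 5 segments. Its upper flank, with 9 protein-coding genes, was 55.9% type 3, 28.0% type 2 and 16.1% type 4. The lower flank of IrxB was 44.0% type 3, 25.7% type 4, 18.0% type 2 and 12.3% type 1, the only type 1 in either window. The upper flank of IrxB was 58.8% type 4, 18.0% type 5, 12% type 2 and 11.2% type 3. The 4 flanks joined were 35.4% type 4, below the 85.0% of the 2 clusters together and above the 13.6% of all bins.

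At both ends of IrxB and at the upper end of IrxA, type 4 gave way to type 3 near the neighbouring protein-coding genes. At the lower end of IrxA, where no protein-coding gene lay within 500 kb, further type 4 segments followed, set mostly among type 5. Fto, which encodes an RNA demethylase and spans 355 kb below Irx3, had 61.5% of its body in type 3, 24.4% in type 2, 14.1% in type 1 and none in type 4. The border at which type 3 changed to type 4, at position 91670001, was 1.57 kb past the end of Fto, within 1 step of the table, and 129 kb from Irx3. Fto introns are known to hold enhancers that act on Irx3 and Irx5. On the other side of IrxB type 4 ran 159 kb past Irx6 and ended inside Mmp2, a matrix metalloprotease gene, which was 48.6% type 4 and 51.4% type 3. Above Irx4, type 4 changed to type 3 at position 73315001, 45.4 kb past the gene. The protein-coding gene next above that border, Ndufs6, encodes a subunit of respiratory complex I. Its lower end was 4.88 kb from the border and its start site, on the minus strand, 13.5 kb. Ndufs6 and the mitochondrial ribosomal protein gene Mrpl36 lay wholly in type 3.

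Of 19 other protein-coding genes over both windows, 2 took type 4 for most of the body, beside the 14% of all protein-coding genes. Another 8 took type 3 (33.8% of all protein-coding genes), 6 type 2 (5.44%), 2 type 5 (9.53%) and 1 type 1 (37.2%). The 2 in type 4 were Slc6a2, the noradrenaline transporter gene, and the carboxylesterase gene Ces1a, both wholly. Beyond IrxA the telomerase gene Tert was 57.1% type 2 and 42.9% type 3, Clptm1l was wholly type 2, and the solute carrier genes Slc6a18, Slc6a19 and Slc12a7 were wholly type 3. In the lower flank of IrxB the ciliary gene Rpgrip1l, whose start site was 303 bases from that of Fto, was 83.1% type 1 and 16.9% type 2.

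The upper flanks carry paralogues as the clusters do. Lpcat1 and Lpcat2, lysophosphatidylcholine acyltransferase genes, both took type 2, over 63.9% and 92.7% of the body. The dopamine transporter gene Slc6a3, above IrxA, was 90.9% type 2 and 9.10% type 3, whereas its paralogue Slc6a2, above IrxB, was wholly type 4. Above IrxB the calpain subunit gene Capns2, inside Lpcat2, was also wholly type 2. Ces1b was 64.5% type 5 and 35.5% type 4, Ces1c wholly type 5, and Ces1d 75.4% type 3.

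Between the members, 11 of 15 long non-coding RNA genes took type 4 for most of the body and 4 took type 3, beside 25.4% in type 4 over all 12322 such genes. All 8 of IrxA took type 4, among them Gm20554 and Gm38580 near Irx2. In IrxB, Irx3os, Gm39223 and Gm28516 took type 4. Crnde, LOC115486949, Gm36670 and Gm36843 took type 3. Crnde was 96.3% type 3, and only its last 1.12 kb, with the start site on the minus strand, lay in the type 4 segment of Irx5. The type 3 segment over Crnde was 30 kb, close to the 30.1 kb of the gene. The 40 kb type 3 segment above Irx3 likewise held LOC115486949, Gm36670 and most of Gm36843.

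Compared with other homeobox clusters, those of Irx were longer and with that length held more type 4 in kb. Type 4 covered 1101 kb of IrxA and 762.4 kb of IrxB, while the whole Hox clusters measured 96.9 to 173.9 kb. The Hoxa and Six2-Six3 clusters were 100.0% type 4, Hoxd 99.9%, Hoxc 68.2% and Hoxb 57.9%. The 3 Dlx pairs held no type 4 and were wholly type 3. With 500 kb on each side IrxB (63.0%) and IrxA (60.0%) had more type 4 than Hoxa (47.0%), Hoxd (44.8%) and Six2-Six3 (40.5%). Long type 4 segments were not particular to Irx. In these windows the longest was 630 kb for IrxA, 345 kb for Hoxd, 300 kb for IrxB, 280 kb for Hoxa and 275 kb for Six2-Six3. It was at most 95 kb for Hoxb, Hoxc and the Dlx pairs. All 8 other clusters with such flanks held type 1, from 10.5 to 48.1%, IrxB held 3.27% and IrxA none. The windows differ in how much of them is cluster, so these shares are side by side and were not tested.

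**Figure D5:**
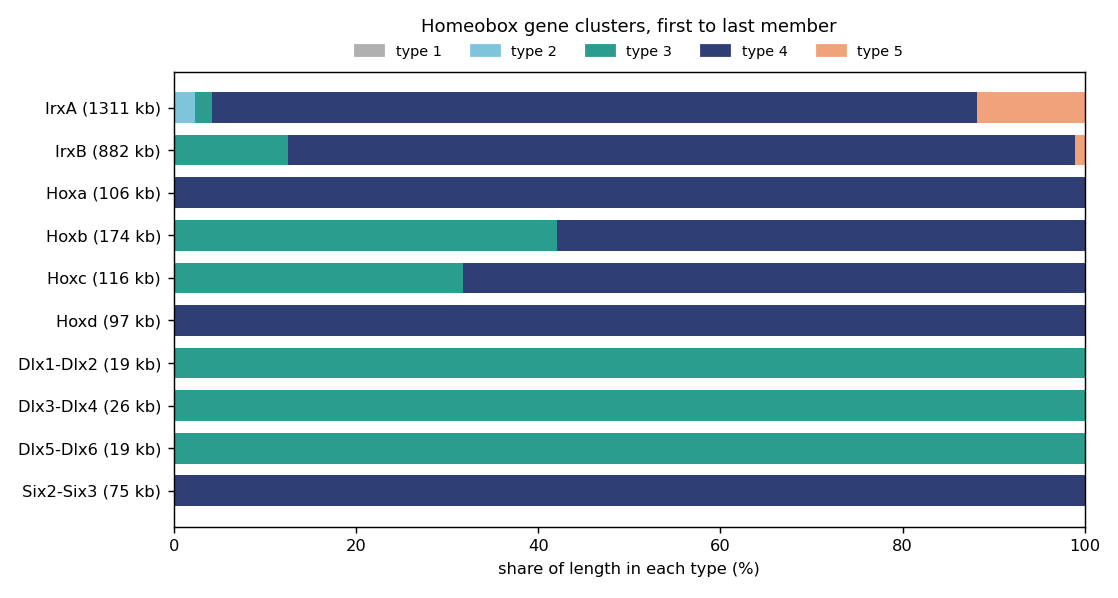
Share of length in each type (x axis, %) from the first to the last member of the 2 Irx clusters and 8 other homeobox clusters, with the length of each in kb beside its name. The Irx clusters are the longest and are 84.0 and 86.4% type 4, and the Dlx pairs are wholly type 3.

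The other TALE homeobox genes are cofactors and repressors that do not stand in clusters. Of 11 examined, 5 took type 4 for most of the body, 5 type 1 and 1 type 3, beside the 14% in type 4 of all protein-coding genes and the 6 of 6 of Irx. Over all protein-coding genes type 1 took most of the body in 37.2% and type 3 in 33.8%. Wholly in type 4 was Pknox2. Meis2, a Hox cofactor, was 90.9% type 4, Meis1 71.6%, Mkx, a tendon factor, 71.3% and Pbx2 53.3%. Meis3 was wholly type 3. In type 1 were Tgif1, a repressor of TGF-beta signalling, wholly, Pknox1 over 87.7% of the body, Pbx3 over 87.2%, Pbx4 over 69.1% and Tgif2 over 67.1%. All 11 of these genes are longer than Irx3 and Irx5, but lengths overlap those of the other members. Pbx2 is shorter than Irx1, Irx2, Irx4 and Irx6, and Tgif1 is shorter than Irx2 and Irx4. The part of gene length in the counts was not tested.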

How the data were processed

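The table that the authors deposited gives 31563 segments of chromosomes 1 to 19, each with an H2Aub type from 1 to 5, a category and not a count or signal. The submitters' processing notes name the mm10 build, deepTools 3.0.2, Picard 2.8.0, Trim Galore 0.4.5 and Bowtie2 2.3.4.3, in no order. The name of the table credits ChromHMM; the sources used here give neither its version nor its settings or input libraries. Segments were read into 492539 bins of 5 kb with Python 3.11.15, taking the shorter segment where segments overlapped (261 bins, none in the Irx windows). Shares are in bases. Genes were placed with RefSeq GRCm38.p6, leaving out 333 genes on scaffolds. Start sites came from the RefSeq promoter table, which gives strand. The code was checked on made-up segments. Named genes were the 6 members, all protein-coding genes of the windows, non-coding genes between or beside members, other homeobox clusters and TALE genes, of which some are not reported here. Members, lists and alternatives were chosen with earlier results of these data known. Distances to the nearest bin of each type, comparison with all long gaps, and Adamts16 were added after the values were seen. Every sample was grouped by its title, but no library has a value, so depth and precision are unknown.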

Additional observations from a re-analysis of the deposited data

How the results depend on the processing

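Of 26 alternatives over 6 results, 10 could not change a value, because no overlapping segments lie in the Irx windows and each member lies wholly in a type 4 segment of at least 90 kb. Of the other 16, 14 stayed within the counting interval of the reported value or gave the same count, but several had little or no room to move. Taking the deserts only or adding 20 kb to each span alters little of a cluster's length, so these are weak checks. With 20 kb on each side all 6 genes still had type 4 over most of the length. Segments of at least 90 kb made that certain in advance, although it is counted among the 14. Without segments under 25 kb the type 4 share of IrxB rose from 86.4 to 91.6%, since type 3 and 5 segments between type 4 segments left the count. Its type 3 share fell from 12.5 to 8.41%, close to the lower end of the counting interval (8.0 to 18.3%). With flanks of 250 kb the type 4 share of the flanks was 48.2% in place of 35.4%. With 1 Mb it was 30.9%, barely inside the counting interval (30.8 to 40.4%). No paired analysis was possible because the segmentation has no column for any library. The depth behind the types is unknown, and borders are fixed to 5 kb steps, which bears most on Irx5 and Crnde.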

Other observations

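Windows of the length of each Irx cluster were laid along chromosomes 1 to 19 in steps of 5 kb, so that neighbouring windows overlap. The median window held 6.49% type 4 at the length of IrxA and 4.55% at that of IrxB. As much type 4 as in IrxA was reached by 0.113% of windows, and as much as in IrxB by 0.287%; windows over the clusters themselves are among them.

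Above IrxB, a 135 kb type 4 segment began 90 kb past the end of the type 4 segment of Irx6. It held Slc6a2, Ces1a and part of Ces1b and was followed by 85 kb of type 5 with the rest of Ces1b and Ces1c. The 90 kb in between, with the end of Mmp2, Lpcat2 and Capns2, held type 3, type 2 and a 5 kb type 5 segment. Pseudogenes between Irx1 and Irx2, the desert with the least type 4, lay outside it: Rpl9-ps4 and Gm4057 in type 5 and Gm4052 in type 3. Rpl31-ps2, between Irx2 and Irx4, lay wholly in type 4. In the flanks Gm9619, Gm2875 and Gapdh-ps16 were type 4, Gm10263 and Gm2947 type 3, and Gm45910 mostly type 5. No share over all pseudogenes was taken.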
